A study of Mus musculus with 3 samples.

Results

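Genes that encode secreted antimicrobial and acute phase proteins were followed in cells from the border of mouse colon and anus, without injury, in colitis and in recovery. They were Lcn2, Ltf, Slpi, Wfdc2, Wfdc18, Saa1, Saa3, Defb1, Defb6 and Defb45, taken by gene symbol, 10 of the 31053 genes in the deposited table, and each symbol was present once. Single-cell libraries were made from C57Bl/6 mice bought at 6 weeks of age, 1 library for each of 3 days. The day 0 mice were untreated and labelled histologically normal. The day 7 and day 42 mice had received 3% dextran sulphate sodium (DSS), a detergent-like sugar polymer that injures the colonic lining, in their drinking water for 6 days starting on day 0, and were labelled as severe colitis and as recovered. In each group the distal colon and anus of 5 mice were pooled, so glandular colon, the anal transition and hairy perianal skin share a library, and differences between animals cannot be seen. Tissue was dissociated with trypsin, dead cells were removed, and droplet libraries of the 3′ ends of transcripts were sequenced. The authors' own cell names and cluster numbers were used throughout. With 1 library per day there is no replicate check of any difference between days: intervals below are 95% intervals for counting error only, exact Poisson for levels and folds and exact Clopper-Pearson for shares of cells, and nothing was tested between days.

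These proteins form a chemical barrier at body surfaces. Lipocalin 2 (Lcn2) binds bacterial siderophores and lactoferrin (Ltf) binds iron itself, and both are also stored in neutrophil granules. Slpi, Wfdc2 and Wfdc18 carry whey acidic protein domains, a fold shared by protease inhibitors and antibacterial peptides, and Slpi inhibits neutrophil elastase. Serum amyloid A proteins (Saa1, Saa3) are acute phase lipid-binding proteins that rise with interleukin 1 and interleukin 6 signals, Saa3 mostly outside the liver. The beta-defensins (Defb1, Defb6, Defb45) are small cationic peptides of epithelia. Transcription of several acute phase genes is known to be driven by C/EBP and NF-kappaB factors.

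On the mouse genome build GRCm38 the GENCODE M21 annotation places Lcn2 at chr2:32384633-32388252, Slpi at chr2:164354070-164389095, Wfdc2 at chr2:164562413-164568510 and Defb45 at chr2:152593191-152599399. Saa1 at chr7:46740497-46742980 and Saa3 at chr7:46711998-46715700 are neighbours, Defb1 (chr8:21776599-21795185) and Defb6 (chr8:19225478-19228209) lie on chromosome 8, Ltf lies at chr9:111019271-111042767 and Wfdc18 at chr11:83709015-83711348. All 10 are protein coding, and only Slpi has an exon that overlaps another gene, the microRNA gene Mir7678. The 250 bases before the RefSeq transcription start (GRCm38.p6) were found for 9 of the 10 genes. The windows of the acute phase genes Saa1 and Saa3 and of Lcn2 and Slpi, which were chosen with their day 7 levels known, are printed 5′ to 3′ on the gene's strand, because the C/EBP factor gene Cebpb was measured in the same cells. Capitals mark matches to TTNNGNAA on either strand, the letters used for a C/EBP site.
Lcn2: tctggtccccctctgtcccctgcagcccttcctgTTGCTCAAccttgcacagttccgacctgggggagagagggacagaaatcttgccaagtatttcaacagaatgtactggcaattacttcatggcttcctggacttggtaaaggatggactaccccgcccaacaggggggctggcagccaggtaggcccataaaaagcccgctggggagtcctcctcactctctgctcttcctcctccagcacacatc
Slpi: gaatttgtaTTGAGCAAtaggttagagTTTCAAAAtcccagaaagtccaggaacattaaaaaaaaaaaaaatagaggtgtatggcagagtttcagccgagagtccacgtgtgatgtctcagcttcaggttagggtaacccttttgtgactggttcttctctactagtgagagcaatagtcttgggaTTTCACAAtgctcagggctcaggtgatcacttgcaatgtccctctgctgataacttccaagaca
Saa1: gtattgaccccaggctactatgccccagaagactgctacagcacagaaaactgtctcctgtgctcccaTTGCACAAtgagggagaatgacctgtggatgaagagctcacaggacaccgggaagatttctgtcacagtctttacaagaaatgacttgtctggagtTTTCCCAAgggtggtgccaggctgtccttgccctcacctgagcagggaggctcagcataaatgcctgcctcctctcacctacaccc
Saa3: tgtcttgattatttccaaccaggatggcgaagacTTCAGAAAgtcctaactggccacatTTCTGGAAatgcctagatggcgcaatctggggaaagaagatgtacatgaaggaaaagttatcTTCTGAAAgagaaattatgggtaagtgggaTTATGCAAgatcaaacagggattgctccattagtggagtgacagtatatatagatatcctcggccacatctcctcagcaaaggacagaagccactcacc
The Lcn2 window (chr2:32387740-32387989, minus strand) held 1 match, Slpi (chr2:164356508-164356757, minus strand) held 3, Saa1 (chr7:46742981-46743230, minus strand) held 2 and Saa3 (chr7:46715677-46715926, minus strand) held 4. The Lcn2 and Slpi windows lie inside the wider GENCODE span of their genes, which includes transcripts that start further upstream. Such letters are common: 36.8% of 32851 windows of the same length held at least 1 match. Ltf held 2 matches, Wfdc2 1, Defb6 3, and Wfdc18 and Defb45 none. A match to the NF-kappaB consensus on either strand was in the Defb6 window alone among the 9, against 3.9% of all windows, and TATAAA on the gene's strand was in the Wfdc18 window alone, against 7.59%. These are letter matches, not measured binding sites, and a window without a match says only that these letters are not in these 250 bases.

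The libraries held 11037, 14376 and 11667 cells at days 0, 7 and 42, with 89241138, 151886649 and 72258639 counts and a median of 5995, 6217.5 and 5708 counts per cell. Cell mixture differed between the libraries: the authors named 5 neutrophils at day 0, 1513 at day 7 and 448 at day 42. Cells with over 20% mitochondrial counts made up 32.1%, 14.9% and 13% of the 3 libraries. Pairs of libraries shared 40 to 55 cell barcodes, and none was in all 3. At day 7, transcripts of neutrophils were found in every cell class. In T cells, for example, the summed level of 7 neutrophil markers (Csf3r, Cxcr2, Retnlg, Mmp9, Il1r2, S100a8 and S100a9) was 25.3, 4561 and 517 CPM (a gene's counts scaled to a total of 1000000) at days 0, 7 and 42, with 4, 7 and 6 of the 7 genes detected. T cells, which should lack the 10 genes, therefore give the background for stray RNA: at day 7 they held 93.5 CPM of Lcn2 in 6.78% of 118 cells, 72.4 CPM of Slpi in 5.08%, 48.2 CPM of Wfdc2 in 10.2% and no Saa3 count. Their median depth was 2064, 2260 and 1393 counts per cell. Levels near these are read as background below. Day 7 levels are also given without any cell that held a count of Csf3r, Cxcr2, Retnlg, Mmp9 or Il1r2. This choice was made after the data were seen. Il1r2 is not particular to neutrophils here: keratinocyte cluster 9 held 139 CPM over the 3 days, against 10.2 CPM in other keratinocytes. In keratinocytes the filter therefore also leaves out cells of that kind.

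Lcn2, Slpi, Saa1, Saa3, Defb1 and Defb6 had their highest library level at day 7, Ltf and Wfdc2 at day 42, and Wfdc18 and Defb45 at day 0. Over all cells, Lcn2 stood at 37.5, 474 and 22.5 CPM at days 0, 7 and 42, Slpi at 47.2, 239 and 53.3 CPM, and Saa3 at 0.415, 68.5 and 1.12 CPM. Saa1 was likewise highest at day 7, at 183, 369 and 218 CPM. Ltf had a different order, at 53.3, 52.0 and 1029 CPM, and Wfdc2 stood at 763, 950 and 1631 CPM. Defb1 stood at 46.9, 93.4 and 44.4 CPM, Defb6 at 112, 177 and 32.8 CPM and Wfdc18 at 24.5, 21.1 and 14.9 CPM. Defb45 was highest at day 0, at 50.4, 0.724 and 5.76 CPM. Such totals mix the level in a cell with the number of cells of that kind, so the cell classes are taken in turn.

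**Figure D1:**
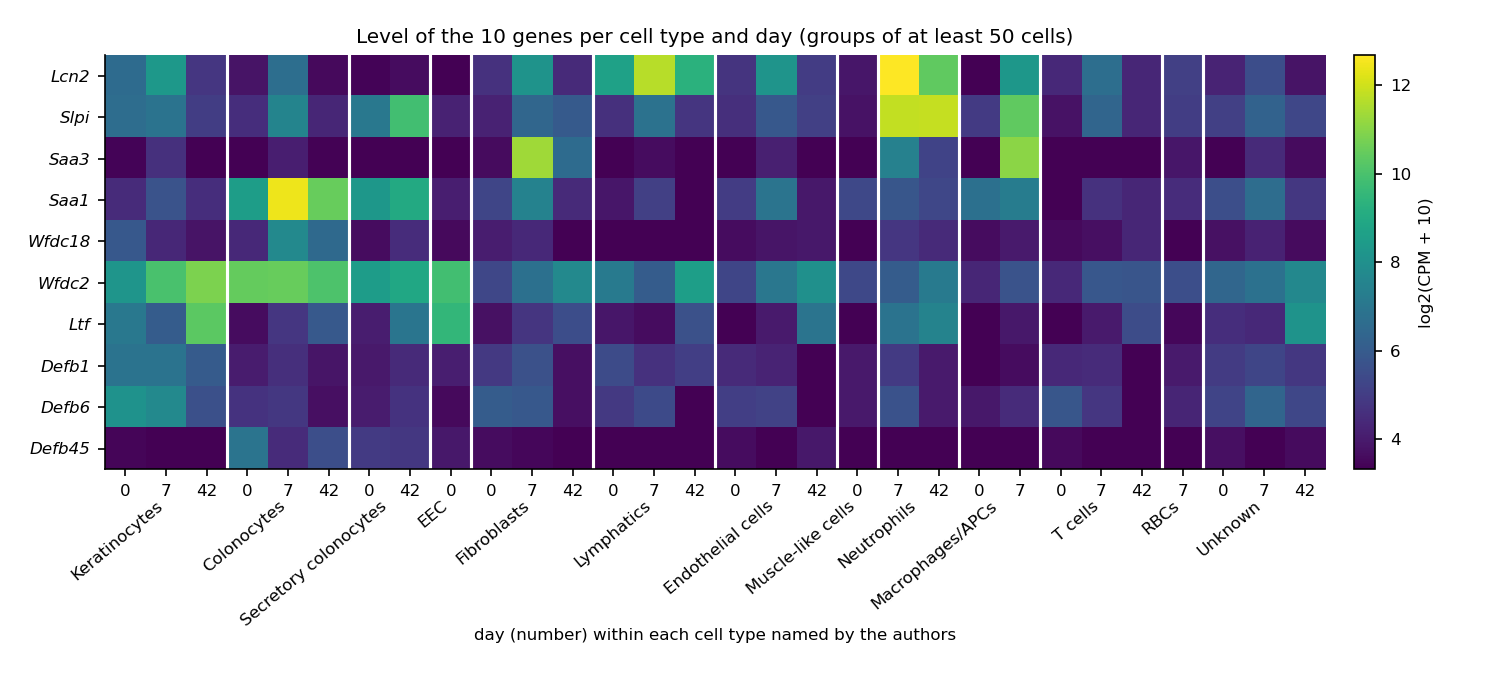
Level of each of the 10 genes as log2(CPM + 10), by colour, in every authors' cell type and day with at least 50 cells; rows are genes and columns are days 0, 7 and 42 within a cell type. Lcn2 and Slpi are brightest in neutrophils, Saa1 in colonocytes at day 7, Saa3 in fibroblasts and macrophages at day 7 and Ltf in keratinocytes at day 42.

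Lcn2, the siderophore trap, was held by neutrophils, lymphatic cells and a few keratinocyte clusters. Neutrophils carried 6552 CPM (6475 to 6630) at day 7 and 1352 CPM (1231 to 1483) at day 42, and the 5 neutrophils of day 0 held none. A count was seen in 89.3% (87.6 to 90.8) of 1513 neutrophils at day 7 and 37.7% (33.2 to 42.4) of 448 at day 42, with median depths of 2585 and 662 counts per cell. Thinned to 1000 counts per cell the shares were 88.0% and 54.7%, although only 45 of the 448 cells of day 42 were deep enough for that.

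Lymphatic endothelial cells were second only to neutrophils in their Lcn2 level at day 7. Their level was 401 CPM (319 to 498) at day 0, 3221 CPM (3097 to 3349) at day 7 and 616 CPM (505 to 745) at day 42, from 63, 190 and 84 cells. The day 7 level was 8.02-fold (6.44 to 10.1) that of day 0, and it did not rest on a few cells: 87.9% (82.4 to 92.2) of lymphatic cells held a count at day 7, and the 10 highest cells held 26.0% of the counts. Thinned to 1000 counts, the shares of lymphatic cells with Lcn2 were 33.3%, 77.7% and 36.6%. Neutrophil markers also stood higher in these cells at day 7, at a summed 9.79, 2741 and 253 CPM with 2, 7 and 6 of 7 genes detected. Without the 27 cells that held a neutrophil count the day 7 Lcn2 level was 3444 CPM, as large as with them. All 4 lymphatic markers were detected on each day, at a summed 8332, 9457 and 8191 CPM. Slpi in the same cells was 106.6 CPM at day 7 and 43.4 CPM without the cells holding neutrophil counts.

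Keratinocytes supplied most Lcn2 counts of the library: 88.3%, 54.6% and 62.8% of them at days 0, 7 and 42, against 38.2% in neutrophils at day 7. Their level was 86.9 CPM at day 0, 306 CPM at day 7 and 17.6 CPM at day 42, so day 7 was 3.53-fold (3.40 to 3.66) day 0. Within keratinocytes the gene was concentrated in clusters 13 and 8. Cluster 13 was led by lipid enzymes of sebaceous cells (Scd1, Cers4, Mgll and Fa2h) together with the immunoglobulin genes Igkc and Igha, and all 5 sebaceous markers were detected in it on each day. Lcn2 in cluster 13 was 496 CPM (468 to 526), 1547 CPM (1527 to 1567) and 462 CPM (406 to 523) at days 0, 7 and 42, so days 0 and 42 overlap within counting error and day 7 stands apart. Cluster 8, led by Cst6, Defb6 and Krt79, had 271, 758 and 217 CPM.

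Other keratinocyte clusters showed the day 7 excess from a much lower base. Cluster 4, led by the suprabasal keratins Krt10 and Krt1, had 5.27, 187 and 13.3 CPM, and cluster 9 had 4.12, 123 and 3.67 CPM. The cluster 9 level at day 7 is close to that of T cells, while cluster 4 held a count in 53.1% of cells, or 13.4% of cells thinned to 1000 counts against 3.81% of T cells. The lower keratinocyte level of day 42 than of day 0 goes with fewer cells of clusters 8 and 13: cluster 8 made up 23.6%, 10.4% and 4.57% of keratinocytes at days 0, 7 and 42 and cluster 13 made up 6.57%, 12.6% and 1.33%. The part of cell mixture in the class level was not tested.

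Macrophages and endothelial cells also held Lcn2 at day 7. Macrophages had no count at day 0 and 301 CPM at day 7, at least 39.5-fold higher against a floor of 3 counts, and endothelial cells had 16.6, 275 and 21.5 CPM at days 0, 7 and 42. At day 7 a count was seen in 29.5% of macrophages and 36.5% of endothelial cells, or 11.9% and 16.0% after thinning. Without cells holding neutrophil counts both classes had 184 CPM, against 42.1 CPM in T cells treated alike. Fibroblasts held 15.5, 269 and 11.7 CPM, and the day 7 level was 102 CPM without cells holding neutrophil counts. Colonocytes held 4.22, 92.9 and 1.92 CPM, and 27.2 CPM at day 7 without such cells, beside the 42.1 CPM of T cells. Most of the colonocyte excess sat in cluster 22, of which 279 of 288 cells came from day 7 and whose leading genes were S100a9, S100a8, Retnlg and haemoglobin genes: it held 562 CPM of Lcn2, against 52.1 CPM in cluster 2 on that day. Of the 2 Lcn2 receptor genes listed, neither reached 10 CPM in keratinocytes or colonocytes on any day.

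**Figure D2:**
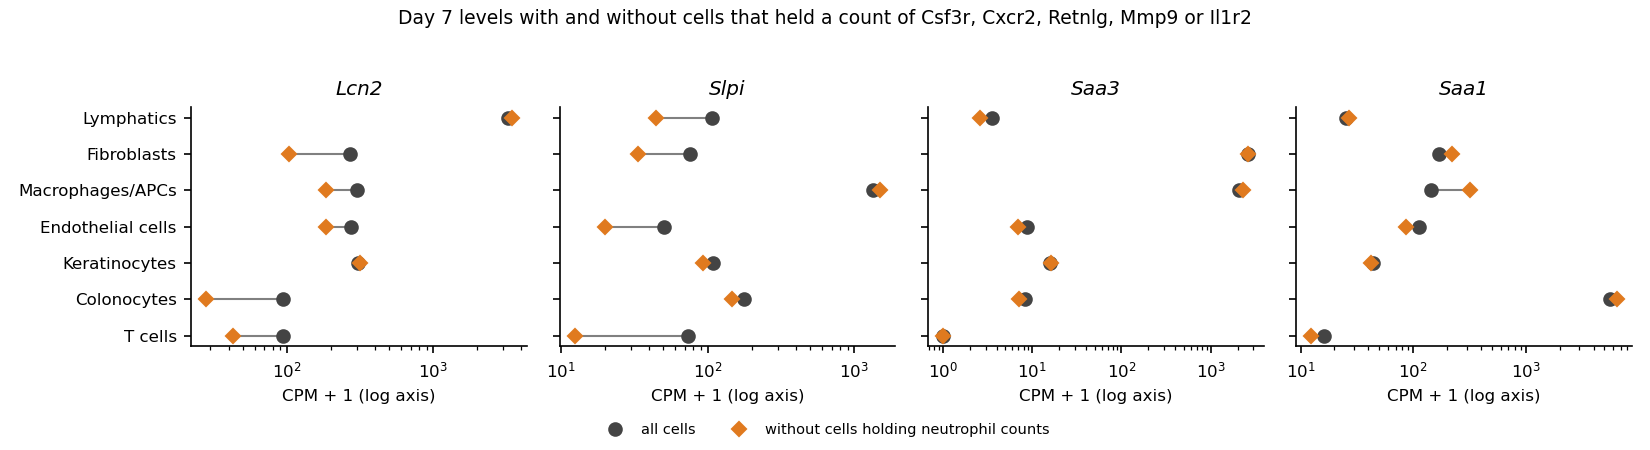
Day 7 level (CPM + 1, log axis) of Lcn2, Slpi, Saa3 and Saa1 in 7 cell classes, over all cells (circles) and without cells that held a count of 5 neutrophil genes (diamonds). Lcn2 in lymphatic cells, Slpi and Saa3 in macrophages, Saa3 in fibroblasts and Saa1 in colonocytes lie close in both, while Slpi in T cells goes from 72.4 to 11.5 CPM and Lcn2 in colonocytes from 92.9 to 27.2 CPM.

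Ltf, the iron-binding protein of secretions, was concentrated in 1 keratinocyte cluster. Cluster 5, whose leading genes included Psca, Ltf and Krt19, held 82.9%, 64.5% and 94.7% of all Ltf counts at days 0, 7 and 42. Its level was 2951 CPM (2860 to 3045) at day 0, 1481 CPM (1441 to 1522) at day 7 and 3788 CPM (3760 to 3816) at day 42. The share of its cells with a count was alike on the 3 days, at 65.5% (54.6 to 75.4) of 87 cells, 70.4% (62.7 to 77.3) of 162 and 66.6% (64.6 to 68.6) of 2153, or 45.3%, 41.5% and 47.5% after thinning. In the whole keratinocyte class the levels were 123, 56.2 and 1261 CPM, a 10.3-fold (9.97 to 10.6) higher level at day 42 than at day 0. Within cluster 5 the same comparison gave 1.28-fold (1.24 to 1.33), and the cluster itself made up 2.62%, 1.79% and 27% of keratinocytes. The day 0 level of cluster 5 rested on few cells, since its 10 highest cells held 68.2% of the counts and the level without them was 1129 CPM, whereas at day 42 they held 9.66%.

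At day 42 Ltf was also seen outside cluster 5. Cluster 1 keratinocytes held 2.94, 3.87 and 60.2 CPM, cluster 12 held 355, 72.7 and 2102 CPM, cluster 14, which the authors left unnamed, held 16.9, 3.24 and 463 CPM, and colonocytes held 2.54, 17.7 and 51.0 CPM. Cluster 12 is shallow, and its day 0 value came from 51 cells. T cells, where the gene is not expected, held 0, 6.03 and 35.1 CPM. At day 42 fibroblasts held 36.5 CPM, lymphatic cells 40.3 CPM and endothelial cells 113 CPM. The cluster 1 and colonocyte levels of day 42 lie within this range and so near background. Neutrophils, whose immature forms make lactoferrin, held 108 CPM in 7.47% of cells at day 7 and 173 CPM in 4.69% at day 42, and 10 cells held 49.4% and 81.0% of these counts. Of the 6 genes listed for immature neutrophil granules, Ltf among them, 4 reached 10 CPM in neutrophils at day 7 and 5 at day 42. The list summed to 1865 and 2448 CPM. Mpo and Elane had no count in neutrophils at day 7 and Mpo none at day 42. Enteroendocrine cells held 730 CPM at day 0, but the counts lay in 3 of 78 cells.

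**Figure D3:**
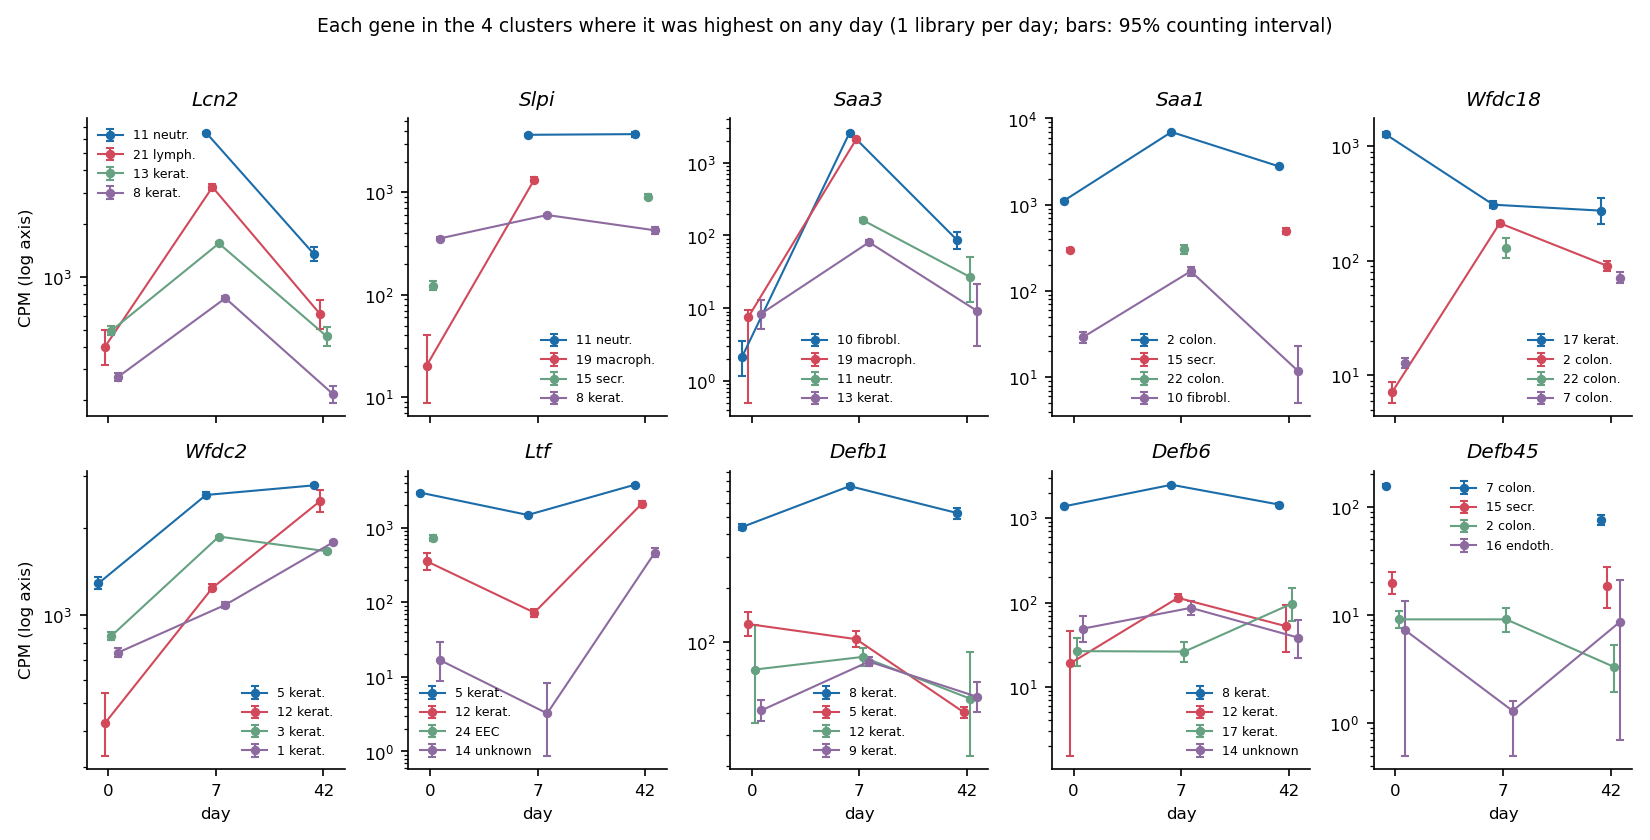
CPM (log axis) at days 0, 7 and 42 of each gene in the 4 authors' clusters in which it was highest, numbered with a short form of the authors' cell name; bars are 95% counting intervals, clusters under 50 cells on a day have no point, and values under 3 counts are drawn at the level of 3 counts. Lcn2 peaks at day 7 in clusters 21, 13 and 8 together, Defb1 and Defb6 lead in cluster 8 on every day, and Ltf leads in cluster 5 on every day.

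Slpi, the inhibitor of neutrophil elastase, was carried by neutrophils on both DSS days. Neutrophils had 3653 CPM (3595 to 3711) at day 7 and 3708 CPM (3505 to 3920) at day 42, intervals that overlap. At day 7, 1283 of 1513 neutrophils held both Lcn2 and Slpi, 68 held Lcn2 alone and 96 Slpi alone. At day 42, 140 of 448 held both, 29 Lcn2 alone and 210 Slpi alone. Among the shallower neutrophils of day 42, Slpi was thus seen more often than Lcn2.

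Macrophages and other antigen-presenting cells showed Slpi at day 7 on a scale not seen at day 0. Their level was 20.3 CPM (8 counts in 91 cells) at day 0 and 1334 CPM (1273 to 1398) in 278 cells at day 7, a 65.6-fold (33.2 to 152) ratio. At day 42 there were 44 such cells with 3 Slpi counts. A count was seen in 7.69% (3.15 to 15.2) of cells at day 0 and 44.2% (38.3 to 50.3) at day 7, or 2.30% and 30.1% after thinning, and the 10 highest cells held 39.8% of the day 7 counts. Neutrophil markers in this class summed to 96.6 and 5031 CPM on the same days, with 4 and 7 of 7 genes detected, and Slpi was 1497 CPM in the 122 cells without a neutrophil count.

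In secretory colonocytes, the goblet cell compartment, Slpi was higher after DSS than before. The level was 123 CPM (112 to 135) in 479 cells at day 0 and 907 CPM (853 to 962) in 179 cells at day 42, 7.38-fold higher, with a count in 17.3% (14 to 21) and 56.4% (48.8 to 63.8) of cells, or 6.58% and 32.1% after thinning. The 10 highest cells held 61.3% and 58.1% of these counts. The 35 secretory cells of day 7 were too few for a level, yet held 3290 Slpi counts: 30 of them had a count, 1 cell alone had 818, and the 10 highest held 93.2%. Ordinary colonocytes had 13.2, 175 and 10.3 CPM, and 146 CPM at day 7 without cells holding neutrophil counts, which is above the 11.5 CPM of T cells treated alike.

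Slpi in the whole keratinocyte class hid differences between its clusters. The class had 91.6, 107.2 and 22.9 CPM, and cluster 8 had 354, 601 and 426 CPM. In cluster 8 a small share of cells carried it: 13.3%, 30.9% and 11% had a count (6.24%, 13.7% and 6.93% after thinning) and the 10 highest cells held 62.2%, 50.3% and 84.2% of the counts. Cluster 4 had 64.8, 173 and 45.2 CPM. Clusters 3 and 9 held 1.56 and 1.96 CPM at day 0 and 49.3 and 40.3 CPM at day 7. These day 7 levels were below that of all T cells. They were above the level given earlier for T cells without cells holding neutrophil counts. The clusters are not given here without such cells, so their levels were not told apart from background. Cluster 12 was lower at day 7, at 539, 163 and 38.3 CPM, but its day 0 value came from 85 counts in 51 cells, with a count in 7.84% of them.

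Wfdc2, a whey acidic protein of glandular and mucosal surfaces, was held by both colonocytes and keratinocytes. Colonocytes held 1412, 1461 and 1063 CPM, and 99.3% and 97.3% of cluster 7 cells had a count at days 0 and 42. Keratinocytes held 287, 1016 and 1827 CPM, 3.54-fold (3.47 to 3.62) at day 7 and 6.37-fold (6.24 to 6.50) at day 42 relative to day 0. Keratinocyte clusters differed in their order of days. Cluster 1 had 743, 1085 and 1779 CPM, cluster 5 had 1286, 2588 and 2792 CPM, and cluster 12 had 425, 1242 and 2466 CPM, each highest at day 42. Cluster 3, led by cell division genes such as Ube2c and Birc5, was highest at day 7, at 848, 1863 and 1659 CPM, as were clusters 8, 9 and 13 at lower levels. Cluster 4 had 86.1, 79.7 and 186 CPM, and cluster 17 had 66.9, 23.1 and 61.99 CPM. At day 42 T cells held 45.1 CPM, fibroblasts 201 CPM, endothelial cells 252 CPM and lymphatic cells 369 CPM. The cluster 4 and cluster 17 levels of that day were thus not told apart from background. Cluster 3 made up 8.11%, 21.9% and 12.2% of keratinocytes and cluster 5 as given above. Colonocytes held 82.5% of Wfdc2 counts at day 0, and keratinocytes held 90.4% at day 7 and 90.1% at day 42. Keratinocytes were 30.04%, 62.8% and 68.3% of the cells on the 3 days, and what the cell mixture added was not tested.

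Wfdc18, a small whey acidic protein, differed from day 0 in opposite directions in keratinocytes and colonocytes. In keratinocytes it stood at 49.4, 10.4 and 4.22 CPM. Cluster 17 held 1391 of the 1680 keratinocyte counts at day 0 and 684 of 1330 at day 7, but 62 of 245 at day 42, when cluster 8 held 56 and cluster 5 held 47. Cluster 17, led by Cxcl14 and Postn with hair follicle genes such as Krt71 and Tchh, had 1275 CPM (1209 to 1344), 309 CPM (287 to 333) and 275 CPM (211 to 352), but its 10 highest cells held 73.2%, 71.6% and 93.5% of the counts. In colonocytes Wfdc18 stood at 11.03, 202 and 81.7 CPM, 18.4-fold (16.5 to 20.4) at day 7 and 7.41-fold (6.59 to 8.34) at day 42 relative to day 0. Cluster 2, led by surface colonocyte genes such as Car4, Slc26a3 and Aqp8, had 7.14, 213 and 90.3 CPM with a count in 2.94% (2.24 to 3.80), 47.7% (43.9 to 51.4) and 15.1% (13 to 17.4) of cells, or 0.537%, 14.3% and 6.04% after thinning. Cluster 7, led by division genes, had 12.9 CPM at day 0 and 71.5 CPM at day 42, and its 33 cells of day 7 held 188 counts. The colonocyte level was 221 CPM at day 7 without cells holding neutrophil counts.

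**Figure D4:**
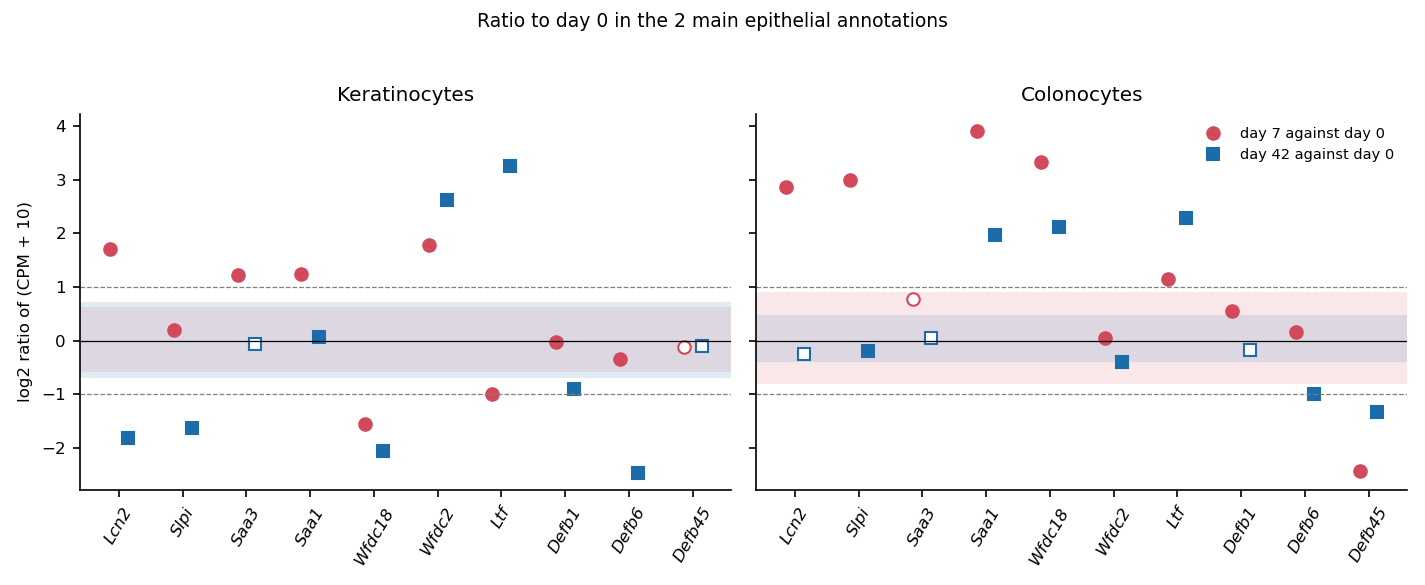
Log2 ratio of (CPM + 10) to day 0 of each gene in keratinocytes and colonocytes, at day 7 (circles) and day 42 (squares); open symbols are genes under 10 CPM on both days, dashed lines mark 2-fold, and the shaded bands hold the middle 90% of all genes tested. Ltf and Wfdc18 lie on opposite sides of 0 in the 2 classes at day 7, and Wfdc18 again at day 42.

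Saa1, the acute phase serum amyloid of the mucosa, was a colonocyte gene on all 3 days. Colonocytes held 88.8%, 86.2% and 91.1% of its counts at 364, 5625 and 1450 CPM. Cluster 2 had 1112 CPM (1094 to 1131) at day 0, 6968 CPM (6906 to 7031) at day 7 and 2782 CPM (2736 to 2828) at day 42, which is 6.26-fold (6.15 to 6.38) and 2.50-fold (2.44 to 2.56) day 0. The share of cluster 2 cells with a count was 56.6%, 77.5% and 63.8% (39.9%, 64.2% and 53.6% after thinning), and the 10 highest cells held at most 10.4% of the counts on any day, so the difference was spread over the cluster. The dividing colonocytes of cluster 7 held little, 12.4 CPM at day 0 and 15.1 CPM at day 42. Cluster 2 was 51.6%, 69.3% and 72.0% of colonocytes and cluster 7 was 48.3%, 3.25% and 27.7%, so the class ratio is larger than the ratio within cluster 2. At day 7, 294 of 1015 colonocytes held both Saa1 and Wfdc18, 339 Saa1 alone and 118 Wfdc18 alone.

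Secretory colonocytes had 298 CPM of Saa1 at day 0 and 502 CPM at day 42, and their 35 cells of day 7 held 958 counts. Keratinocytes had 12.3, 42.9 and 13.2 CPM, beside a T cell level of 15.1 CPM at day 7. In the GENCODE transcripts 46.0% of the 31-base words of Saa1 also occur in its near copy Saa2, which had 0.729, 8.49 and 1.72 CPM in colonocytes. Counts of these 2 genes could have been split or lost in counting, so the Saa1 level is uncertain.

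Saa3, the serum amyloid made outside the liver, was nearly absent at day 0, with 37 counts in the whole library, and had 10411 counts at day 7 and 81 at day 42. Fibroblasts held 45.7% of the day 7 counts and macrophages 26.6%. In fibroblasts the level was 2.14 CPM (1.17 to 3.59) in 1436 cells, 2598 CPM (2525 to 2673) in 316 cells and 86.1 CPM (65.5 to 111) in 222 cells. The day 7 level was 1213-fold (722 to 2220) that of day 0, and the day 42 level was 40.2-fold (22.2 to 78.0). A count was seen in 0.279% (0.0759 to 0.712), 48.4% (42.8 to 54.1) and 5.86% (3.15 to 9.81) of fibroblasts, or 0.168%, 37.2% and 4.56% after thinning. The 10 highest cells held 43.7% of the day 7 counts and the level without them was 1551 CPM, but at day 42 they held 94.9% and the rest 4.64 CPM.

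In macrophages no Saa3 count was found in 91 cells at day 0, an exact interval of up to 3.97% of cells with a count and no limit on cells that express the gene, and 2091 CPM (2013 to 2170) were found at day 7 in 41.0% (35.2 to 47.0) of 278 cells. Against a floor of 3 counts in the day 0 cells this is at least 274-fold higher. None of the 44 cells of day 42 had a count. Of the day 7 macrophages, 90 held both Slpi and Saa3, 33 Slpi alone, 24 Saa3 alone and 131 neither. T cells had no Saa3 count on any day, macrophage markers in fibroblasts summed to 2.45, 21.9 and 7.30 CPM, and C1qa and Adgre1 had no count there on any day. Without cells holding neutrophil counts the day 7 levels were 2649 CPM in fibroblasts and 2318 CPM in macrophages. Neutrophils themselves held 163 CPM of Saa3 in 4.96% of cells at day 7, and cluster 13 keratinocytes held 8.45, 80.7 and 9.27 CPM. All keratinocytes together held 20 counts in 2 cells at day 0 and 7 counts in 5 cells at day 42. The cluster 13 values of those days therefore rest on few counts. In GENCODE 7.44% of the 31-base words of Saa3 occur in other genes, spread over 1710 of them.

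**Figure D5:**
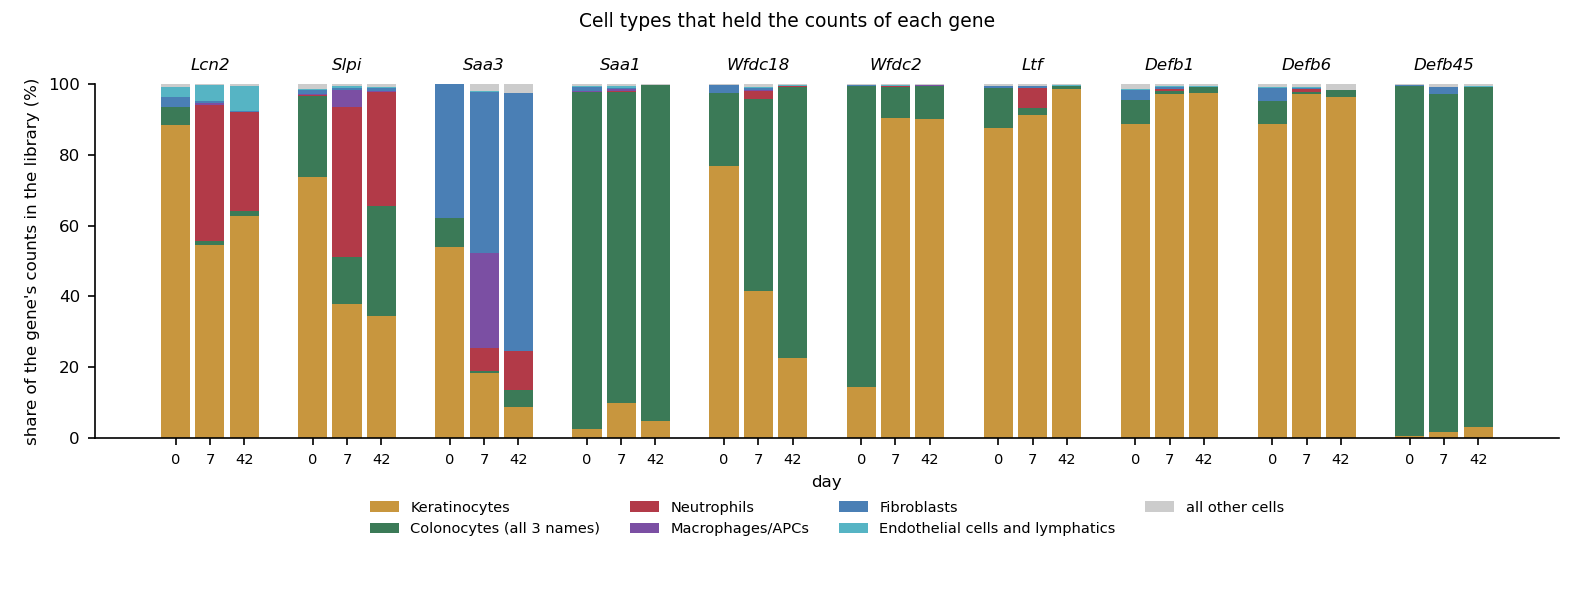
Share of each gene's counts (percent of the gene's counts in that library) held by 6 groups of the authors' cell types at days 0, 7 and 42; grey is all other cells. Wfdc2 counts lie mostly in colonocytes at day 0 and in keratinocytes later, most Wfdc18 counts lie in keratinocytes at day 0 and in colonocytes later, and Saa3, which had 37 counts at day 0 and 81 at day 42, is mostly in fibroblasts and macrophages at day 7.

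Defb1 and Defb6, beta-defensins of squamous surfaces, shared their leading cluster. Cluster 8 held 84.9%, 85.8% and 87.3% of all Defb6 counts at days 0, 7 and 42. Its Defb6 level was 1383 CPM (1354 to 1413), 2497 CPM (2465 to 2530) and 1455 CPM (1393 to 1519), and its Defb1 level was 440 CPM (424 to 457), 747 CPM (730 to 765) and 528 CPM (491 to 567). Day 7 stood above days 0 and 42 for both genes, by 1.81-fold (1.76 to 1.85) for Defb6 and 1.70-fold (1.62 to 1.78) for Defb1 relative to day 0. Over all keratinocytes Defb6 was highest at day 0, at 262, 204 and 39.2 CPM, and Defb1 stood at 109, 107 and 53.7 CPM, beside the smaller share of cluster 8 given above. In cluster 8 at day 7, 523 of 943 cells held both defensins, 304 Defb1 alone, 48 Defb6 alone and 68 neither. Defb6 was seen without Defb1 in 58 of 781 cells at day 0 and 31 of 364 at day 42, and whether the genes share cells beyond their own frequencies was not tested. Outside cluster 8, Defb1 reached 126, 103 and 40.2 CPM in cluster 5. Fibroblasts held 56.5 CPM of Defb6 at day 0 and T cells 47.1 CPM, which is background.

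Defb45, by contrast, was a gene of the colon. Cluster 7, led by Defb45 itself and division genes such as Stmn1, Ube2c and Mki67, had 157 CPM (153 to 162) in 1809 cells at day 0 and 75.3 CPM (67.7 to 83.5) in 412 cells at day 42, a ratio of 0.479 (0.429 to 0.533). A count was seen in 72.4% (70.3 to 74.5) and 44.4% (39.6 to 49.4) of these cells, with median depths of 14084 and 9607 counts. Thinned to 1000 counts the shares were 13.6% and 7.60%. At day 7 only 33 cells fell in the cluster and 16 of them held Defb45. In all colonocytes the level was 109.8, 12.2 and 37.9 CPM, 0.111-fold (0.0907 to 0.135) at day 7 and 0.346-fold (0.310 to 0.384) at day 42, while in cluster 2 it was 9.105, 9.105 and 3.31 CPM. The low day 7 level of the class thus stood beside few cluster 7 cells. Secretory colonocytes held 19.9 and 18.5 CPM at days 0 and 42, and every other annotation with 50 cells held less.

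The members were also counted by a fixed size of ratio. A gene was counted when its ratio of (CPM + 10) was at least 2-fold and it had 10 CPM on either day. In keratinocytes 9 of the 10 members could be counted at day 7 against day 0: Lcn2, Wfdc2, Saa1 and Saa3 were higher, against 1.38% of all genes, and Ltf and Wfdc18 were lower, against 1.17%. At day 42 against day 0, of 8 members, Ltf and Wfdc2 were higher (2.79% of all genes) and Lcn2, Slpi, Wfdc18 and Defb6 were lower (2.39%). In colonocytes Lcn2, Ltf, Slpi, Wfdc18 and Saa1 were higher at day 7 among 9 members (4.16% of all genes) and Defb45 was lower (2.56%). At day 42, of 7 members, Ltf, Wfdc18 and Saa1 were higher (1.29%) and Defb45 was lower (0.462%). The median log2 ratio of all colonocyte genes was -0.13 at day 7 and -0.03 at day 42, and that of keratinocyte genes -0.01 and -0.03. Both comparisons share the day 0 library. With every keratinocyte cluster given equal weight, 1 member in place of 2 was higher and 1 in place of 4 was lower at day 42, and in colonocytes Defb45 was no longer lower on either day. Neither of the 2 lower keratinocyte genes of day 7 stayed past 2-fold without the 10 highest cells of each gene. Ltf lay at the limit even with all cells, at a log2 ratio of -1.003.

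In the other classes at day 7 against day 0, fibroblasts had 5 of 9 members higher (Lcn2, Slpi, Wfdc2, Saa1 and Saa3, against 3.12% of all genes) and 0 lower (2.66%). At day 42 against day 0 fibroblasts had Ltf, Slpi, Wfdc2 and Saa3 higher among 8 members (1.85%) and Defb1 and Defb6 lower (1.22%). T cells in the same comparison had Ltf, Wfdc2 and Saa1 higher among 8 (5.09%) and Defb1 and Defb6 lower (7.13%), with Ltf at 35.1 CPM at day 42 beside 36.5 CPM in fibroblasts. Of these T cell calls, 2 rest on too few counts to show a difference: Saa1 with 2 counts against 0 and Defb1 with 0 against 6. Macrophages had 4 of 6 higher at day 7 (Lcn2, Slpi, Wfdc2 and Saa3, against 4.6%) and 0 lower (8.51%). Lymphatic cells had 3 of 6 higher (Lcn2, Slpi and Saa1, against 7.57%; Saa1 with 19 counts against 1, a fold interval of 0.783 to 205 that includes no change) and Wfdc2 lower (5.3%). Endothelial cells had 4 of 6 higher (Lcn2, Slpi, Wfdc2 and Saa1, against 5.86%) and 0 lower (5.94%). T cells, the background class, also had 4 of 6 higher (Lcn2, Slpi, Wfdc2 and Saa1, against 4.43%) and Defb6 lower (4.85%), so these counts can include stray RNA and should be read with the levels given above. In neutrophils at day 42 against day 7, Lcn2, Saa3 and Defb6 were lower among 9 members (2.36%) and Wfdc2 was higher (6.41%), beside a median log2 ratio of all genes of 0.30. In secretory colonocytes at day 42 against day 0, Ltf and Slpi were higher among 8 (1.69%) and 0 were lower (0.579%).

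Other host defence genes were read from a list of 39. In colonocytes at day 7 14 of the 17 with enough counts were past 2-fold higher and none lower, against 4.16% and 2.56% of all genes, among them Lypd8, a protein that keeps flagellated bacteria from the mucosa, at 4115, 18831 and 13643 CPM at days 0, 7 and 42. The others were S100a8, S100a9, Ngp, Lyz2, Hp, C3, Retnlg, Wfdc17, Wfdc21, Duoxa2 and Nos2, with Pglyrp1 and Duox2. Pglyrp1, a peptidoglycan-binding protein, had 285, 1352 and 644 CPM there, and Duox2, the epithelial hydrogen peroxide source, 17.6, 138 and 88.4 CPM. At day 42 7 of 10 were past 2-fold higher than day 0, against 1.29% of all genes: S100a8, S100a9, Pglyrp1, Wfdc17, Lypd8, Duox2 and Duoxa2. In keratinocytes 5 of 13 were higher at day 7 (S100a8, S100a9, Hp, Retnlg and Wfdc17), against 1.38% of all genes. In fibroblasts 14 of 17 were higher (S100a8, S100a9, Camp, Ngp, Lyz2, Pglyrp1, Hp, Cp, C3, Cfb, Retnlg, Wfdc17, Wfdc21 and Lypd8, against 3.12% of all genes), with complement C3 at 293, 750 and 705 CPM beside Saa3. In macrophages 10 of 16 were higher (S100a8, S100a9, Ngp, Chil3, Pglyrp1, Hp, Retnlg, Wfdc17, Wfdc21 and Nos2, against 4.6%) and Lyz1 and Rnase4 lower (8.51%); haptoglobin (Hp) had 66.1 and 794 CPM at days 0 and 7. T cells had 7 of 11 higher (S100a8, S100a9, Lyz2, Hp, Retnlg, Wfdc17 and Wfdc21, against 4.43%). S100a8, S100a9 and Retnlg are neutrophil markers here, and Camp, Ngp and Chil3 are also known from neutrophils. Neutrophil markers summed to 17.9 and 3054 CPM in fibroblasts at days 0 and 7, beside the macrophage and T cell values above, and their part in these counts was not tested.

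A list of 16 genes upstream of these proteins (interleukins, their receptors, and C/EBP and NF-kappaB factors) was read the same way, and differences between classes were not tested. At day 7, 1 of 9 was past 2-fold higher in keratinocytes and 1 of 10 in colonocytes, in both the cytokine Il1b, against 1.38% and 4.16% of all genes. In fibroblasts 5 of 12 were higher: Il1b, Il6, the receptor Il1r1, Cebpb and Nfkbiz, against 3.12% of all genes. There Il6 had 6.43, 54.7 and 7.30 CPM, Il1r1 had 47.3, 199 and 101 CPM, and Cebpb, the C/EBP factor of acute phase genes, had 407, 888 and 359 CPM at days 0, 7 and 42. Macrophages had 3 of 10 higher (Il1b, Il6 and Cebpb, against 4.6%), with Il1b at 4198 and 12398 CPM and Cebpb at 617 and 1993 CPM at days 0 and 7. Lymphatic cells had 6 of 11 higher (Il1b, Il6, Il17ra, Cebpb, Nfkbiz and Relb, against 7.57%), with Cebpb at 284, 948 and 455 CPM, and Il17ra, the interleukin 17 receptor, at 39.2, 102.8 and 17.3 CPM. T cells, the background class, also had 3 of 13 higher (Il1b, Il6 and Cebpb) and Tnf lower (against 4.43% and 4.85% of all genes). Their Cebpb level was 233, 666 and 196 CPM. What stray neutrophil RNA added to these levels was not tested.

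Across the 30 combinations of cell type and day with at least 50 cells, the genes most like each member by Pearson correlation of log2(CPM + 10), among 7932 genes, were found, and each is given with the cells in which it was highest. Defb45 was most like Edn2 (0.97) and Kcne3 (0.94), both highest in day 0 colonocytes. Defb6 was most like Krt79 (0.92), a keratin of hair follicle ducts, and Psapl1 (0.89), and Defb1 most like Dsc3 and Igfbp2 (both 0.87), all highest in day 0 keratinocytes. Ltf was most like Psca (0.91) and Nccrp1 (0.82), highest in day 42 keratinocytes. Wfdc2 was most like Rab25 and Lad1 (both 0.91), highest in day 42 keratinocytes and day 7 colonocytes. Saa1 was most like Dmbt1, an epithelial scavenger receptor, and Il18 (both 0.89), and Wfdc18 most like Mgat4c and 9130204K15Rik (both 0.85), all highest in day 7 colonocytes. Lcn2 was most like Retnlg and Wfdc21 (both 0.80), highest in day 7 neutrophils. For Slpi, Cxcl3 (0.83), highest in day 7 neutrophils, was among the 2 most like genes. Saa3 was most like Ggt5 (0.74) and Inhba (0.72), highest in day 7 fibroblasts. The 30 points share 3 libraries and are not independent, so these are descriptions only.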

How the data were processed

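Per the submitters' processing notes, reads were processed with Cell Ranger 3.0.2 against mm10; the gene annotation release and filters are not given in the sources used here. The authors deposited 1 matrix of raw counts (37080 cells and 31053 genes) with a table of cells that gives a cluster, a cell name, a day and a size factor, and a table of genes. The deposited size factor is the authors' ratio of a cell's total count to the geometric mean of all totals: in all 37080 cells total count over size factor was the same number, which ties the columns of the matrix to the table of cells. Cell names and clusters are the authors'; no cell was removed for the main values.

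Counts were summed over the cells of a name or cluster and day and divided by their total to give CPM. Ratios are log2 of (CPM + 10), only for groups of at least 50 cells on both days; a gene counts as higher or lower from 2-fold, among genes with at least 10 CPM on either day. A total of 0 counts is given a floor of 3 counts. Shares of cells were also thinned to 1000 counts per cell by their exact expected value. Droplet counts of 1 library are not independent biological samples, so intervals cover counting error only. Doublets were not removed; Scrublet in scanpy 1.11.5 called 3.81%, 0% and 2.29% of cells at days 0, 7 and 42, and with 0 called at day 7 its threshold did not work there, so the alternative leaves out the top 5% of scores in each library. The ratio script was tested on simulated data with known changes. Analyses used Python 3.11.15, numpy 2.4.6 and scipy 1.17.1.

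Alternatives were a pseudocount of 1 CPM, other scalings, a cell filter, doublet scores, leaving out the 10 highest cells, equal weight to clusters and no filter on low values. The 10 genes, the gene lists and the markers were chosen with earlier results of these data known. The text names all 10 members, the listed genes past 2-fold in the classes it describes, and the 2 genes most like each member, except 1 that is not reported here.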

Additional observations from a re-analysis of the deposited data

Results flagged for a closer look

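In 3 comparisons a gene was past 2-fold on opposite sides of day 0 in the 2 main epithelial classes; with 1 library per day the difference between classes was not tested. Ltf at day 7 had a log2 ratio of -1.0 in keratinocytes and 1.14 in colonocytes. Wfdc18 at day 7 had -1.54 in keratinocytes and 3.34 in colonocytes, and at day 42 -2.06 and 2.13. The keratinocyte values of Ltf and Wfdc18 at day 7 rest on the cells of clusters 5 and 17, and the colonocyte Ltf level of day 7 was 17.7 CPM.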

How the results depend on the processing

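No paired analysis was possible because each day has 1 library. Of 400 log2 ratios in keratinocytes and colonocytes over 10 alternatives, 358 kept their direction and their side of 2-fold, 13 were no longer past 2-fold, 9 came past it, 18 uncalled values moved beyond counting error and 2 changed sign; the cause was not tested. Both sign changes came with equal weight to clusters: Defb6 in keratinocytes at day 42 had 0.10, and Defb45 in colonocytes at day 7 had 1.0e-05, where cluster 2 is the only cluster with 50 cells on both days. Of 88 counts of members, 76 stayed the same. The count of members lower in keratinocytes at day 7 (2) was 1 with median-of-ratios size factors, with the mean of CPM per cell, without the top Scrublet scores and without cells holding neutrophil counts, and 0 without the 10 highest cells. With equal weight to clusters, the keratinocyte counts of day 42 were 1 higher and 1 lower, and no colonocyte member was lower on either day (0 and 0). The colonocyte count of lower members at day 42 (1) was 2 with a pseudocount of 1 CPM, with totals without mitochondrial and ribosomal protein genes, and with the cell filter. Thinning moved 176 of 300 shares of cells, and the cell filter moved 33 of 250 CPM values. Groups under 50 cells give no level, and 1 library per day leaves the spread between mice unmeasured. Median-of-ratios size factors put the median log2 ratio of all keratinocyte genes at 0.10 and 0.12 at days 7 and 42, and totals without mitochondrial and ribosomal protein genes put that of colonocytes at -0.29 at day 7. Leaving out clusters 12 and 22, a choice made after the data were seen, left all 40 log2 ratios and all 8 counts of members on their side of 2-fold.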

Other observations

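Reg3g, an antibacterial lectin of the gut, had 2, 10 and 15 counts in colonocytes at days 0, 7 and 42. Il1b in macrophages was already high at day 0, at 4198 CPM, when Saa3 had no count in them. The 3 enteroendocrine cells with Ltf at day 0 held 415 of the 4761 Ltf counts of that library.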
